A study of Equus caballus with 20 samples.

Results

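Cytokines, chemokines and their receptors were followed in muscle of horses with recurrent exertional rhabdomyolysis (RER), a disorder in which exercise is followed by breakdown of muscle fibres. The members are the probes whose gene symbol names an interleukin or its receptor, a CC or CXC chemokine or its receptor, a member of the TNF ligand or TNF receptor superfamilies, or Tnf, Ifng, Lif, Osm, Csf1, Csf2 or Csf3. They came to 180 of the 24493 probes on the array and stood for 145 of the 12018 genes named there. Of these genes, 64 had a value in at least 4 of 5 horses in each muscle and were tested, and 81 did not. One member, Il4i1, encodes an amino acid oxidase and matched by its symbol alone, and it was among the genes not tested.

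Biopsies were taken from a muscle of the rump (gluteus medius) and a muscle of the loin (longissimus lumborum) in 15 French Trotters, of which 5 had RER with high plasma activity of muscle enzymes and 10 were sound controls. Genotype, age, treatment and the time between an attack and the biopsy were not given in the sources used here. Each RER horse was set against the pooled control RNA of that muscle on 2-colour oligonucleotide arrays, once with each dye, which gave 20 arrays. Replicates are horses, 5 per muscle, and each horse's value in a muscle is the mean of its 2 dye-swapped arrays. The pool counts as 1 control sample per muscle, so no test here contains the spread among control horses, and the small number of arrays limits the precision of each value.

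Cytokines are small secreted proteins that bind receptors on nearby cells and act mainly through JAK-STAT or NF-kB signalling. Chemokines are a family of cytokines that attract leukocytes along a gradient through receptors coupled to G proteins, and TNF superfamily ligands act as trimers on receptors that recruit TRAF or death-domain adaptors. After injury of skeletal muscle these signals draw in neutrophils, macrophages and lymphocytes, while some cytokines such as Il15 and Il6 are also made by the muscle fibres. The roles given below are those known in human and mouse.

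Signs are those of the deposited log2 ratio, whose likely direction is RER over control pool. The labels do not state the direction, and it is not settled, since 2 gluteus arrays with RER RNA in Cy3, those of horses 2 and 4, had a correlation of -0.341 over the probes. With every sign turned, each size below stays and the counts above and below 0 change places. That covers only a turn of all arrays together. With only the Cy3 arrays of 4 dye-swapped pairs turned, sizes changed too, and 17 of 70 values of named genes changed sign. A log2 ratio of 1 is a 2-fold difference. Biopsies are mixtures of cells, and fewer cells of a type cannot be told apart from less RNA per cell. A ratio carries no absolute level, so whether a gene was expressed at all cannot be read from it.

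The members were measured unevenly. By the number of probes with a value, 10 arrays were dense (22032 to 24050 probes, 129 to 149 of them members) and 10 were sparse (8966 to 17708 probes, 59 to 123 members). Horses 1 and 2 lay on dense arrays in both muscles, horse 3 in gluteus only, and horses 4 and 5 in neither. Of the member probes, 149 carry a symbol spelled as mouse genes are (Il6) and 31 a symbol in capitals (IL6), and 27 genes appear in both spellings. All 31 probes in capitals had no value on any dense array, whereas 123 of the 149 mouse-style probes had a value on all 10. On the sparse arrays 44 mouse-style probes had no value and 37 had all 10, against 1 and 10 of the probes in capitals. The same split held for capitals over the whole array, where 206 of 219 such probes (94.1%) had no dense value.

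**Figure D1:**
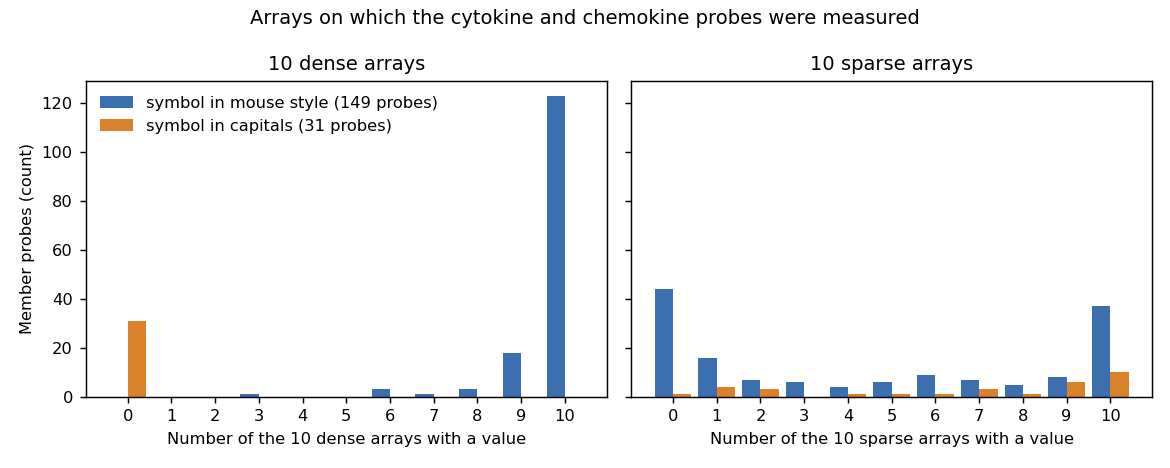
Number of arrays with a value (x axis, 0 to 10) for the 180 member probes (y axis, count of probes), on the 10 dense arrays (left) and the 10 sparse arrays (right), by the spelling of the symbol. All 31 probes in capitals sit at 0 on the dense arrays, and 123 of 149 mouse-style probes sit at 10.

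This bears on the tested genes because probes of 1 symbol were averaged ignoring case. In 48 of the 64 tested genes every horse was measured by the same probes. In the other 16 the probes differed between horses, so that a difference between horses there can also be a difference between probes. In some, such as Ccl5, a mouse-style probe was read on dense arrays and a probe in capitals on sparse ones. In others, such as Csf1 and Il13, the mouse-style probe was read on both kinds of array, and a probe in capitals was added on sparse ones. Il1rap and Tnfrsf9 combine 2 mouse-style probes. For 9 of the 16 (Ccl5, Csf3, Il10, Il1r2, Il4, Il7, Tnfrsf1b, Tnfrsf4 and Tnfsf13b) the required 4 horses were reached only through both spellings. For Csf1 both spellings were read on the sparse arrays, and they parted in longissimus horse 4, where CSF1 gave array ratios of 1.44 and 1.21 and Csf1 gave -0.42 and -0.24.

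No cytokine, chemokine or receptor gene passed the test in either muscle. Of the 64 tested, 30 had a mean log2 ratio above 0 and 34 below 0 in gluteus, and 28 and 36 in longissimus. The median member stood at -0.0055 in gluteus, beside -0.0096 over all features tested, and at -0.029 in longissimus, beside -0.0036. limma with Benjamini-Hochberg adjustment at 0.05 called 0 of 10224 features in gluteus, 0 in longissimus, 0 for the difference between muscles and 0 of 10112 for the mean of both muscles, a background of 0% in each. The lowest adjusted p of any member was 1 in gluteus and 0.825 in longissimus.

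At an unadjusted p under 0.05, gluteus had 1 member above 0 (1.56% of 64), beside 0.636% of all features, and 0 below, beside 1.23%. Longissimus had 0 above 0, beside 1.22% of all features, and 4 below (6.25%), beside 3.01%. These features numbered 191 in gluteus and 433 in longissimus, where 511 is 5% of those tested. The 95% confidence interval lay inside a 2-fold difference either way for 60 of the 64 members in each muscle (93.8%), against 96.7% of all features in gluteus and 94.4% in longissimus. A value of 1 sign in every horse was found in gluteus for 3 members above 0 (4.69%, background 5.51%) and 2 below (3.12%, background 4.24%). In longissimus it was found for 0 above 0 (background 1.93%) and 2 below (3.12%, background 3.02%). The 4 longissimus genes below 0 were Cxcl13, Tnfrsf4, Tnfrsf1a and Il15, and the 1 gluteus gene above 0 was Il27. Both shares lay above the background but rest on few genes, and the other shares of members lay near or under it.

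**Figure D2:**
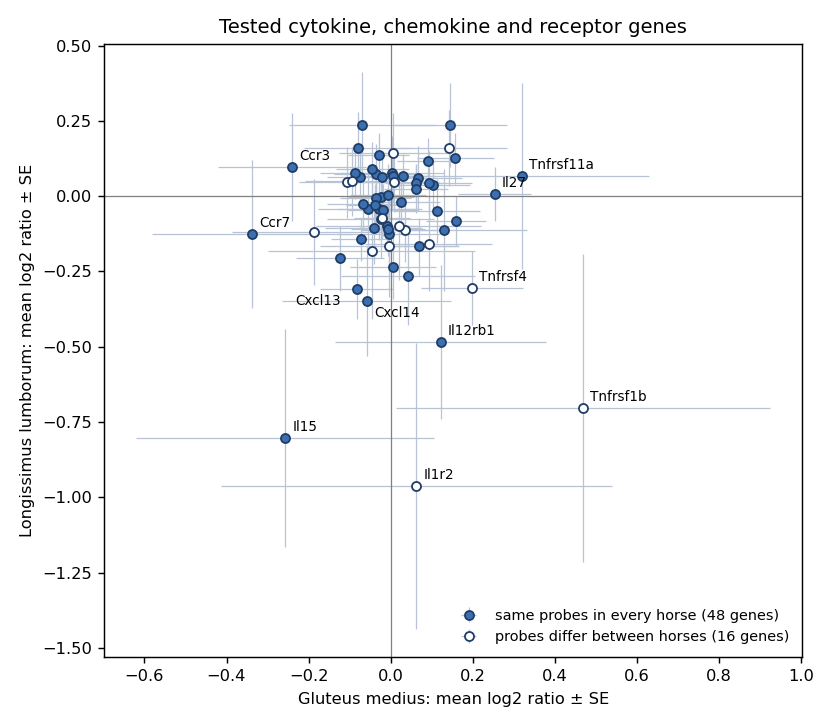
Mean log2 ratio ± SE of the 64 tested genes in gluteus (x axis) and longissimus (y axis), with open circles for the 16 genes whose probes differ between horses. Most genes lie within 0.25 of 0 on both axes, and as deposited the genes farthest below 0 in longissimus are Il1r2, Il15 and Tnfrsf1b, of which Il1r2 and Tnfrsf1b are open circles.

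Among the cytokines themselves, 17 of 40 genes could be tested, with 6 above and 11 below 0 in gluteus and 8 above and 9 below in longissimus. Il15, which is made by muscle fibres and sustains natural killer and memory T cells, had the widest spread of the genes measured by the same probe throughout. Its log2 ratios in gluteus were 0.31, 0.22, 0.057, -1.0 and -0.87 in horses 1 to 5. In longissimus they were -0.47, 0.81, -0.85, -2.40 and -1.11 in horses 1 to 5. Horses 4 and 5 were below 0 in both muscles, and longissimus horse 4 stood lowest. The mean was -0.26 ± 0.36 (SE, n = 5) in gluteus and -0.80 ± 0.36 (SE, n = 5) in longissimus, the latter with a 95% confidence interval of -1.60 to -0.0017. limma's adjusted p was 1 and 0.825.

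The Il15 values differed by the kind of array. The 5 dense values ran from -0.47 to 0.81 and the 5 sparse values from -2.40 to -0.85, without overlap. Of the 54 members with enough values for this comparison, Il15 alone had dense values all above its sparse ones (1.85%), beside a background of 2.71%, and 0 members had them all below, beside 2.44%. Within dense arrays the longissimus mean was 0.17 and within sparse arrays -1.45, and in gluteus 0.20 and -0.94. Without longissimus horse 4 the longissimus mean was -0.40. Within a muscle each horse lay on 1 kind of array, so the horse and the array coverage cannot be told apart.

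The 2 dye-swapped arrays of Il15 also differed. With RER RNA in Cy5 the longissimus mean was -1.37 and with RER RNA in Cy3 it was -0.23, and in gluteus -0.48 and -0.033. In longissimus horse 2 the Cy3 array gave 1.71 and the Cy5 array -0.083, while in longissimus horse 4 both were strongly negative, at -2.07 and -2.72. On sparse arrays all 10 ratios of Il15 were below 0, and on dense arrays the pairs of longissimus horses 1 and 2 and gluteus horses 2 and 3 held both signs.

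**Figure D3:**
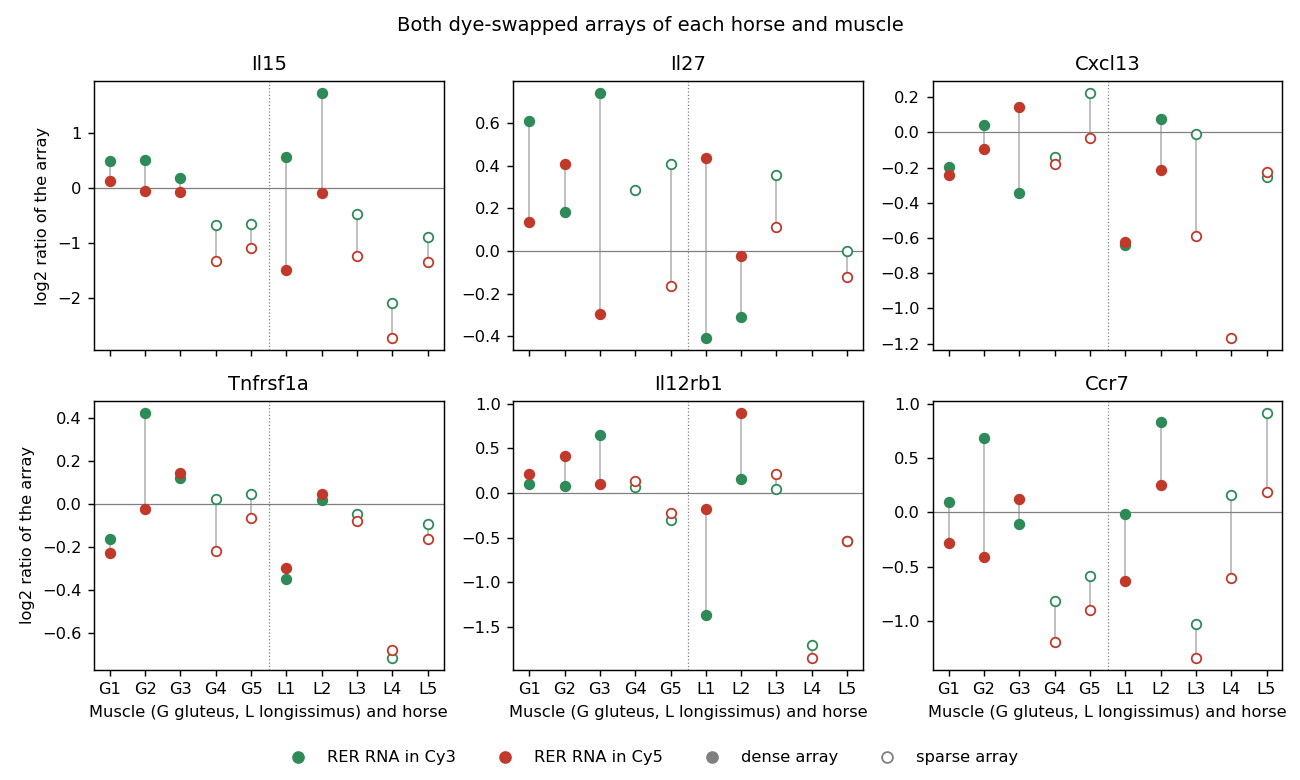
Log2 ratio on each array (y axis) by muscle and horse (x axis, G1 to G5 gluteus and L1 to L5 longissimus) for Il15, Il27, Cxcl13, Tnfrsf1a, Il12rb1 and Ccr7, green with RER RNA in Cy3 and red with RER RNA in Cy5, filled for dense and open for sparse arrays. All open Il15 points lie below 0, and the 2 arrays of Il12rb1 lie on the same side of 0 in every pair.

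Il27, the p28 subunit of a cytokine that tempers T cell responses, was the member nearest to the threshold in gluteus. Its ratios were 0.37, 0.29, 0.22 and 0.12 in horses 1, 2, 3 and 5, above 0 in each horse with a value. The mean was 0.25 ± 0.089 (SE, n = 4), with an unadjusted p of 0.020 in limma and an adjusted p of 1. In longissimus its ratios were 0.015, -0.17, 0.24 and -0.061 in horses 1, 2, 3 and 5, on both sides of 0, and the mean was 0.0059. Over the 4 gluteus horses with both arrays, the mean was 0.48 with RER RNA in Cy3 and 0.022 with RER RNA in Cy5.

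Il5, a growth factor of eosinophils, had a longissimus mean of 0.14 ± 0.074 (SE, n = 5) with ratios of -0.007, -0.011, 0.22, 0.21 and 0.28 in horses 1 to 5. Its 3 sparse values were above 0.2 and its 2 dense values near 0. In gluteus its mean was -0.03. Csf1, the growth factor of macrophages, which averages 2 probes on sparse arrays and 1 on dense arrays, had gluteus ratios of -0.32, -0.11, -0.12, -0.054 and 0.067 in horses 1 to 5 with a mean of -0.11 ± 0.12 (SE, n = 5), and in longissimus it ran from -0.49 to 0.50. Neither gene passed the test in either muscle.

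The remaining cytokines named here combine different probes. Il10, an anti-inflammatory cytokine, ran from -0.29 to 0.21 in gluteus and from -0.72 to 0.50 in longissimus. The 0.21, of gluteus horse 5, averages probes of opposite sign, Il10 at 0.76 and IL10 at -0.33. Il4 and Il13, the cytokines of type 2 immunity, had longissimus means of -0.18 and 0.048 and gluteus means of -0.047 and 0.0069. Longissimus horse 4, at -1.49, set the sign for Il4, whose mean without it was 0.14. Il7, which keeps lymphocytes alive, ran from -1.13 to 0.37 in longissimus, where its mean was -0.16 with horse 4 and 0.076 without it, and Csf3, the growth factor of granulocytes, from -0.52 to 0.29. Il1rn, the natural antagonist of Il1 signalling, had means of -0.025 in gluteus and -0.076 in longissimus. Each of these genes had horses on both sides of 0 in both muscles.

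The interleukin receptors and binding proteins had 17 of 38 genes tested. In gluteus 12 were above 0 and 5 below, with a median of 0.061, and in longissimus 7 were above and 10 below, with a median of -0.050. For 14 of the 17 the gluteus mean was above the longissimus mean, by a median of 0.071, beside 0.0031 over all features. None of the 17 passed for the difference, and the count was not tested as such. The same share was not taken over all features, and the 17 genes were read in the same horses.

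Il20rb, a subunit of the receptors for Il19, Il20 and Il24, was above 0 in all 5 gluteus horses. Its ratios there were 0.27, 0.071, 0.066, 0.27 and 0.11 in horses 1 to 5, and the mean was 0.16 ± 0.073 (SE, n = 5). In longissimus its mean was -0.083 ± 0.082 (SE, n = 4). Il7r, the receptor for Il7, was above 0 in the 4 gluteus horses with a value, at 0.22, 0.095, 0.11 and 0.20 in horses 1, 2, 3 and 5. Its mean was 0.16 ± 0.095 (SE, n = 4) in gluteus and 0.13 ± 0.085 (SE, n = 5) in longissimus, where horses 1 and 2 were below 0. For both genes the 95% interval in gluteus reached below 0, from -0.006 to 0.32 and from -0.054 to 0.37.

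On the other side of 0 stood Il22ra1, the Il22 receptor of epithelial cells, at -0.12, -0.041, -0.11, -0.057 and -0.036 in horses 1 to 5 in gluteus. It was below 0 in all 5 gluteus horses, with a mean of -0.073 ± 0.073 (SE, n = 5), and below 0 in 4 of 5 longissimus horses, with -0.14 ± 0.073 (SE, n = 5). Il27ra, a subunit of the Il27 receptor, was the other receptor below 0 in every gluteus horse with a value, at a mean of -0.045. Il31ra, the receptor of a cytokine linked to itch, had means of -0.12 and -0.21 and was below 0 in 4 of 5 horses in each muscle. Il17re, the receptor for Il17c, had means of 0.07 in gluteus and -0.17 in longissimus. In longissimus horse 4 it stood at -0.61, and without that horse the longissimus mean was -0.054.

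Il12rb1, a subunit shared by the Il12 and Il23 receptors, was picked out after its values were seen, because its 2 arrays had the same sign in 10 of 10 pairs. Its ratios in gluteus were 0.15, 0.25, 0.37, 0.10 and -0.26 in horses 1 to 5. In longissimus they were -0.77, 0.53, 0.13, -1.77 and -0.53 in horses 1 to 5, so the arrays of a horse repeated each other while the horses went both ways. The longissimus mean of -0.48 ± 0.26 (SE, n = 5) was not apart from 0.

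Il1r2, a decoy that binds Il1 without signalling, had a longissimus mean of -0.96 ± 0.48 (SE, n = 4), which rests on 1 array. Its ratios were -3.34, -0.21, 0.12 and -0.41 in horses 1, 2, 3 and 5, with horse 1 far below the others. The horse 1 value is the mean of a Cy3 array at the lowest deposited value, -6.64 (a ratio of 0.01), and a Cy5 array at -0.05. Without horse 1 the longissimus mean was -0.17, and with the Cy3 arrays turned in the pairs that correlate below 0 it was 0.89. Il1rap, the accessory chain of the Il1 receptor, ran from -0.81 to 0.15 in longissimus, also with horse 1 lowest. Il6st, the gp130 chain shared by the receptors of Il6, Lif and Osm, had means of -0.095 and 0.049. All 3 combine different probes.

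Of the CC chemokines, 5 of 15 genes were tested, 4 of them below 0 in gluteus and 3 in longissimus. Ccl24, an attractant of eosinophils, had gluteus ratios of 0.032, -0.005, 0.012, -0.55 and 0.16 in horses 1 to 5. In longissimus they were 0.54, -0.41, -0.11, 1.01 and 0.15 in horses 1 to 5. Horse 4 was thus the lowest in gluteus and the highest in longissimus. The means were -0.069 ± 0.18 (SE, n = 5) and 0.23 ± 0.18 (SE, n = 5), the latter 0.040 without horse 4. Both means changed sign with the dye. With RER RNA in Cy3 and in Cy5 they were 0.15 and -0.29 in gluteus, and 0.57 and -0.10 in longissimus. In horse 4 itself both arrays shared a sign in each muscle. Ccr3, the receptor for Ccl24, had gluteus ratios of -0.45, 0.089, 0.13, -0.80 and -0.18 in horses 1 to 5 and longissimus ratios of 0.17, 0.011, 0.17, 0.76 and -0.62 in horses 1 to 5. Here too horse 4 was lowest in gluteus and highest in longissimus. The Ccr3 means were -0.24 ± 0.18 (SE, n = 5) and 0.10 ± 0.18 (SE, n = 5), the latter -0.069 without horse 4. The -0.80 of gluteus horse 4, however, is the mean of a Cy3 array at 0.11 and a Cy5 array at -1.72. Over the 5 gluteus horses, the Ccr3 mean was 0.11 with RER RNA in Cy3 and -0.59 with RER RNA in Cy5. Ccl5, an attractant of T cells, had means of 0.14 and 0.16 from different probes on dense and sparse arrays.

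Of the CXC chemokines, 3 of 11 genes were tested and all 3 had gluteus means below 0. Cxcl13, which draws B cells into lymphoid follicles, had the smallest p of all members in longissimus. Its longissimus ratios were -0.63, -0.068, -0.30 and -0.24 in horses 1, 2, 3 and 5, below 0 in each horse with a value. The mean was -0.31 ± 0.099 (SE, n = 4) with a 95% interval of -0.53 to -0.087, and limma gave an unadjusted p of 0.0113 and an adjusted p of 0.825. Horse 4 has no mean because 1 of its arrays lacked a value, and the array that had one was negative too. In gluteus the ratios were -0.22, -0.027, -0.10, -0.16 and 0.10 in horses 1 to 5, with a mean of -0.083 ± 0.089 (SE, n = 5).

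Over the 4 longissimus horses with both arrays, the Cxcl13 mean was -0.41 with RER RNA in Cy5 and -0.21 with RER RNA in Cy3. With the single Cy5 array of horse 4, at -1.17, the Cy5 mean was -0.56. It stayed below 0 in each of the alternative settings, between -0.56 and -0.17. Cxcl14, a chemokine of epithelia and of muscle, had longissimus ratios of -0.63, 0.024, 0.16, -1.27 and -0.033 in horses 1 to 5, where horses 1 and 4 lay lowest and the mean was -0.35 ± 0.18 (SE, n = 5), or -0.12 without horse 4. In gluteus its mean was -0.059. The receptor of Cxcl13, Cxcr5, could not be tested.

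All 8 of the 14 chemokine receptors that could be tested had gluteus means below 0, from -0.34 to -0.0083, with a median of -0.049 beside -0.0096 over all features. In longissimus 5 were below and 3 above 0. The gluteus count was not tested, the same share was not taken over all features, and these genes were read in the same horses. No receptor had a gluteus value below 0 in every horse. Ccr7, which guides dendritic cells and lymphocytes to lymph nodes, had the lowest gluteus mean. Its gluteus ratios were -0.092, 0.14, 0.0056, -1.0 and -0.74 in horses 1 to 5, with horses 4 and 5, on sparse arrays, far below the other 3. In longissimus they were -0.32, 0.54, -1.18, -0.22 and 0.55 in horses 1 to 5, where the sparse values lay on both sides of 0. The means were -0.34 ± 0.24 (SE, n = 5) and -0.13 ± 0.24 (SE, n = 5), and on dense arrays alone the gluteus mean was 0.017.

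Cxcr6, the receptor of the membrane-bound chemokine Cxcl16, had gluteus ratios of -0.33, 0.014, -0.018 and 0.021 in horses 1, 2, 3 and 5 and longissimus ratios of -0.36, 0.17, 0.14, 0.51 and 0.35 in horses 1 to 5. Horse 1 was the lowest in both muscles and the other horses lay near or above 0. The other 5 receptors, Ccr6, Ccr8, Ccr9, Ccr10 and Cxcr3, had means between -0.11 and 0.064 in both muscles.

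**Figure D4:**
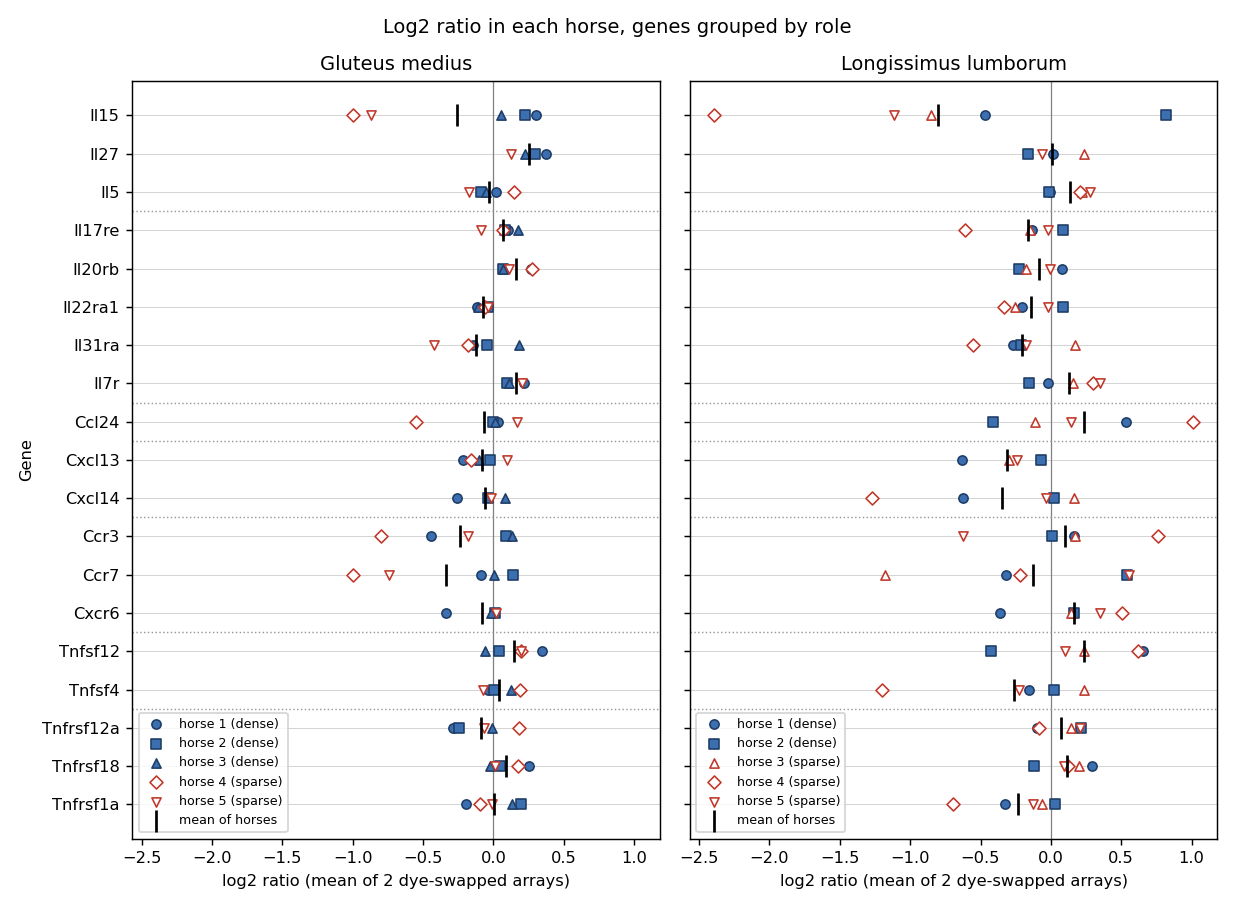
Log2 ratio in each horse (points, x axis) and mean of the horses (bar) in gluteus (left) and longissimus (right) for the named genes measured by the same probes in every horse (y axis, grouped by role), filled for dense and open for sparse arrays. Il15 and gluteus Ccr7 have their open points left of their filled points, and longissimus horse 4 lies lowest for Il15, Cxcl14, Tnfsf4 and Tnfrsf1a and highest for Ccl24 and Ccr3.

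Of the TNF superfamily ligands, 4 of 10 were tested. Tnfsf12 (TWEAK), a ligand that acts on muscle precursors and fibres, had ratios of 0.35, 0.04, -0.057, 0.20 and 0.19 in horses 1 to 5 in gluteus and 0.66, -0.43, 0.23, 0.62 and 0.10 in horses 1 to 5 in longissimus. It was above 0 in 4 of 5 horses in each muscle, with means of 0.14 ± 0.14 (SE, n = 5) and 0.24 ± 0.14 (SE, n = 5). These values average 2 probes, which differed in size and in longissimus horse 5 in sign. In longissimus 1 probe gave 0.19, -0.071, 0.15, 0.17 and 0.26 in horses 1 to 5, and the other gave 1.12, -0.78, 0.32, 1.06 and -0.067. Its receptor Tnfrsf12a (Fn14) had means of -0.087 ± 0.086 (SE, n = 5) and 0.075 ± 0.086 (SE, n = 5). The dyes parted for this receptor. In longissimus its mean was -0.37 with RER RNA in Cy3 and 0.52 with RER RNA in Cy5, and in gluteus -0.21 and 0.031. Neither gene differed from 0 beyond the spread between horses.

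Tnfsf4 (OX40 ligand), which stimulates activated T cells, had a longissimus mean of -0.26 ± 0.16 (SE, n = 5) and a gluteus mean of 0.042. In longissimus its ratios were -0.16, 0.025, 0.24, -1.20 and -0.23 in horses 1 to 5, with horse 4 far below the others, and without horse 4 the mean was -0.031. Its receptor Tnfrsf4 (OX40) had gluteus ratios of 0.072, 0.63, 0.10 and -0.016 in horses 1, 2, 3 and 5 and longissimus ratios of -0.30, -0.16, -0.17 and -0.59 in horses 1, 2, 3 and 5. All 4 longissimus values were below 0 and 3 of the 4 gluteus values above 0. The means were 0.20 ± 0.12 (SE, n = 4) and -0.30 ± 0.12 (SE, n = 4), the latter with a limma unadjusted p of 0.0371 and an adjusted p of 0.825. The difference of 0.50 ± 0.18 (SE) between the muscles was the only one among members at an unadjusted p under 0.05, 0.0191, with an adjusted p of 0.9997, and 1 of 64 (1.56%) compares with 0.782% of all features above 0. Tnfrsf4 combines both spellings, and the 0.63 of gluteus horse 2 is the mean of a Cy3 array at -1.22 and a Cy5 array at 2.49.

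Of the TNF receptors, 10 of 16 were tested, 8 above 0 in gluteus and 6 in longissimus. Tnfrsf1a, the main signalling receptor for Tnf, was measured on all 20 arrays. Its longissimus ratios were -0.32, 0.032, -0.064, -0.70 and -0.13 in horses 1 to 5, below 0 in 4 of 5 horses. The mean was -0.24 ± 0.11 (SE, n = 5), with a limma unadjusted p of 0.0471 and an adjusted p of 0.825. Without longissimus horse 4 it was -0.12. In gluteus the ratios were -0.19, 0.20, 0.13, -0.10 and -0.011 in horses 1 to 5, on both sides of 0. The dyes gave like means in longissimus, -0.24 in Cy3 and -0.23 in Cy5.

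Tnfrsf1b, the second Tnf receptor, found mainly on leukocytes, had ratios of 0.049, 0.12, 0.27, 2.01 and -0.10 in horses 1 to 5 in gluteus and -2.93, -0.14, 0.52 and -0.26 in horses 1, 2, 3 and 5 in longissimus. Both extremes rest on single probes. The 2.01 of gluteus horse 4 came from the probe in capitals, with 1.63 and 2.38 on its 2 arrays. The -2.93 of longissimus horse 1 came from the mouse-style probe, with a Cy3 array at -6.64 and a Cy5 array at 0.78. The other 7 values lay between -0.26 and 0.52. The longissimus mean was -0.70 as deposited, 0.039 without horse 1, and 1.08 with the Cy3 arrays turned in the pairs that correlate below 0.

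Tnfrsf18 (GITR), a receptor of regulatory T cells, had means of 0.091 ± 0.076 (SE, n = 5) and 0.12 ± 0.076 (SE, n = 5) and was above 0 in 4 of 5 horses in each muscle. Tnfrsf9 (4-1BB), on activated T cells, lay within 0.2 of 0 in every horse, and its means were -0.022 and -0.073. Tnfrsf13b (TACI) and its ligand Tnfsf13b (BAFF), which act on B cells, both combine different probes. Tnfrsf13b ran from -0.33 to 0.32 in gluteus and from -0.52 to 0.42 in longissimus, with horse 1 lowest in each. Tnfsf13b ran from -0.98 to 0.29 in gluteus and from -0.46 to 0.25 in longissimus.

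Most of the classical cytokines of inflammation could not be tested. Il6, Il1b, Tnf, Ccl2, Cxcl12, Ifng and Lif had values in too few horses, and their mouse-style probes had values on 0 to 6 of the 10 sparse arrays. Their array ratios are given as a description. Ifng, interferon gamma, which activates macrophages, had gluteus ratios of 0.43 and 0.35 in horse 1, -0.02 and 0.60 in horse 2 and 0.25 and 0.43 in horse 3. In longissimus it had -0.17 and 0.88 in horse 1 and -0.71 and -0.22 in horse 2. Gluteus was thus above 0 on 5 of 6 dense arrays and longissimus on 1 of 4.

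Lif, a cytokine of the gp130 family made by injured muscle, was above 0 on all 6 dense gluteus arrays, between 0.09 and 0.33. In longissimus it was above 0 on 1 of 4, between -0.23 and 0.36. Tnf ran from -0.32 to 0.60 on the 6 dense gluteus arrays and from -0.21 to 0.48 on the 4 longissimus ones. Il1b ran from -0.33 to 0.95 and from -0.13 to 0.72 on the same arrays. Each of Tnf and Il1b held both signs in both muscles.

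Ccl2, the attractant of monocytes, ran from -0.26 to 0.28 on the dense gluteus arrays. In longissimus horse 1 its 2 arrays gave -1.09 and 0.81. Cxcl12, an attractant of stem cells and lymphocytes, had 2 probes, which lay between -0.28 and 0.25 on the dense gluteus arrays. Il6 had 2 probes that never shared an array. Il6 itself gave values on 6 dense arrays, between -1.63 and 0.89, and IL6 on all 10 sparse arrays, between -0.19 and 0.43. The sparse IL6 values lay nearer to 0, and the dense Il6 values of longissimus horse 2 were 0.89 and -1.63 on its 2 arrays.

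One untested probe stood out and was picked after its values were seen. IL12B in capitals, the p40 subunit of Il12 and Il23, was above 0 on all 7 arrays that measured it. Its array ratios were 1.84 and 1.05 in gluteus horse 4, 1.73 and 1.07 in gluteus horse 5, 1.97 and 1.34 in longissimus horse 3, and 0.03 on the 1 array of longissimus horse 5. The mouse-style Il12b on dense arrays gave values from -1.23 to 0.81 of both signs, with the Cy3 array above the Cy5 array in all 5 pairs. The only sparse array that measured Il12b was the Cy5 array of longissimus horse 5, at -0.42. That horse and muscle alone was read by both probes, each on a different array. The 2 probes have no array in common, so the horses and the probes cannot be told apart.

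The muscles did not differ for any member after adjustment. For the gluteus mean minus the longissimus mean, 37 members were above 0 and 27 below, with a median of 0.035 beside 0.0031 over all features. After Tnfrsf4, the smallest p were those of Il20rb at 0.24 ± 0.11 (SE), Il27 at 0.25 ± 0.13 (SE) and Il17re at 0.24 ± 0.13 (SE), the last resting partly on longissimus horse 4 as given above, and on the other side Il5 at -0.17 ± 0.10 (SE). Averaged over both muscles of a horse, 26 of 63 members were above 0 and 37 below, with a median of -0.023 beside -0.0100. Cxcl13 was the member nearest to the threshold at -0.19 ± 0.089 (SE), and Tnfsf12 the nearest above 0 at 0.19 ± 0.11 (SE). limma's lowest adjusted p of a member was 0.999 for the mean of both muscles.

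Agreement between the 2 dyes sets how far single ratios can be read. Over the tested members, both arrays of a pair had the same sign in 330 of 606 pairs (54.5%), against 54.7% over all features. The share was 45.8% on dense arrays and 64.1% on sparse arrays. Over all features, 4 of the 5 dense pairs correlated below 0, at -0.206 and -0.268 in gluteus horses 2 and 3 and at -0.269 and -0.322 in longissimus horses 1 and 2. The arrays of longissimus horse 4 agreed best, at a correlation of 0.849 across features, and this horse and muscle stood apart in size. There 7 of 51 members (13.7%) and 17.9% of all features lay beyond a 2-fold difference, against at most 2 members in any other horse and muscle.

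Markers of the tissue were read as ratios. The median over 9 of 11 tested skeletal muscle markers ran from -0.097 to 0.20 in gluteus and from -0.31 to 0.076 in longissimus. The median over 10 of 20 leukocyte markers ran from -0.025 to 0.074 in gluteus and from -0.72 to 0.088 in longissimus. Both longissimus minima are those of horse 4, where Il15, Il12rb1, Cxcl14, Tnfsf4, Il7 and Tnfrsf1a were also at their lowest. In the same horse Ccl24 (1.01), Ccr3 (0.76), Cxcr6 (0.51), Csf1 (0.50) and Ccr6 (0.38) were at their highest. For Csf1 this rests on the probe in capitals at 1.32, while the mouse-style probe stood at -0.33 there. Of the 51 members with a value there, 18 were at their lowest and 10 at their highest, and 23 were above 0. Such counts were not taken over all features, so they are not a result about the members. All features spread most widely there too, with a standard deviation of 0.87 against 0.20 to 0.50 elsewhere. The part of muscle fibres and leukocytes in the members' ratios was not tested. Since ratios show no level, no defining marker could be said to be absent, and 0 of the leukocyte, muscle and endothelium markers passed the test.

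Genes of the same pathways outside the symbol rule gave the same count of calls, 0. Among receptors and ligands with other names 16 of 24 on the array were tested, 9 above 0 in gluteus and 6 in longissimus. Ltbr, the lymphotoxin receptor, had a gluteus mean of 0.22 ± 0.088 (SE, n = 5), and Ifngr2, a chain of the interferon gamma receptor, a longissimus mean of 0.26 ± 0.12 (SE, n = 5). Of the JAK-STAT genes 13 of 22 were tested, 5 above and 8 below 0 in gluteus and 4 above and 9 below in longissimus. Stat5a, a mediator of Il2 and Il15 signals, stood at 0.18 in gluteus and was above 0 in 5 of 5 horses. Stat4, a mediator of Il12 signals, stood at -0.31 ± 0.14 (SE, n = 5) in gluteus and was below 0 in 4 of 5. Both had a limma unadjusted p of 0.0475 and an adjusted p of 1. Socs3, the inhibitor induced by gp130 cytokines, stood at -0.17 in longissimus and was below 0 in 5 of 5.

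Of the NF-kB genes and adaptors 12 of 27 were tested, with 6 above 0 in gluteus and 7 in longissimus. Tradd, the adaptor of the Tnf receptor Tnfrsf1a, had a longissimus mean of -0.31 ± 0.11 (SE, n = 5) and was below 0 in 5 of 5 horses. Nfkbib, an inhibitor of NF-kB, stood at -0.30 there. The medians of the 3 lists lay between -0.037 and 0.014 in gluteus and between -0.031 and 0.0059 in longissimus, close to those over all features.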

How the data were processed

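Muscle RNA was measured on 2-colour arrays, with 20 arrays for 5 RER horses in 2 muscles. The authors deposited 1 log2 ratio between the channels for each probe and array, normalized in a way not given in the sources used here. That the ratios are log2 was inferred from their range, -6.64 (a floor shared by 707 values) to 9.40. Per the labels' protocols, RNA was extracted with TRIZOL, amplified with amino-allyl nucleotides, 5 µg were coupled to Cy3 or Cy5, and dye-swapped results were averaged. Gene symbols come from the platform annotation, an old one, and how well probes match horse RNA was not tested. No horse sequence was used.

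Array medians were subtracted, and a horse by muscle value needed both arrays. Probes of 1 symbol were averaged ignoring case and unnamed probes kept single, which gave 22819 features. A feature needed a value in 4 of 5 horses per muscle. The 10224 that had them were tested against 0 (two-sided) with limma 3.58.1 (R 4.3.3, statmod 1.5.0), and p-values were adjusted by Benjamini-Hochberg at 0.05. Both muscles and the contrast between them came from 1 fit with a spread shared by both muscles, and the mean of both muscles from 5 per-horse means (10112 features). Standard errors and 95% intervals are from these fits. The procedure was run on simulated data with independent normal noise, which lack the dye and within-horse structure of these data. Of 50 features shifted by 0.5 log2 units it recovered 30 in gluteus and 30 in longissimus. Of 50 shifted by 1 it recovered 42 and 43. False calls among unshifted features numbered 11 and 4.

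Named members are those with the smallest p in each comparison and role group, with the widest range, measured by several probes, or fixed for their role. The members, lists and tests were chosen with earlier results of these data known. Horse numbers mark the same animals in both muscles per the labels. As a check, deviations from the muscle means correlated within horses 1 to 5 at 0.577, 0.303, -0.0989, 0.0209 and -0.0022. Alternatives covered probe averaging, spelling, coverage, centring, floor values, dye, orientation, array groups, moderation, pairing and left-out horses.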

Additional observations from a re-analysis of the deposited data

Results flagged for a closer look

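In 6 of the 70 groups of 4 or 5 horses examined (the named tested genes in each muscle), 1 horse lay far from all others by Dixon's criterion. Chance flags about 1 in 20 groups, but some of these genes were named for a wide range or a small p, so the count of 6 cannot be read against that rate. Gluteus horse 4 stood at -0.55 for Ccl24, the eosinophil attractant, with the other horses between -0.0051 and 0.16. Gluteus horse 1 stood at -0.33 for Cxcr6, with the others between -0.018 and 0.021. Both genes were measured by the same probe in every horse.

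The remaining 4 involve genes whose probes differ between horses. Longissimus horse 1 stood at -3.34 for Il1r2, with the others between -0.41 and 0.12, and 1 of its 2 arrays was at the floor of the table. Gluteus horse 4 stood at 2.01 for Tnfrsf1b, with the others between -0.10 and 0.27, and its value came from the probe in capitals. Longissimus horse 4 stood at -1.49 for Il4, with the others between -0.084 and 0.34. Longissimus horse 1 stood at -0.52 for Tnfrsf13b, with the others between 0.25 and 0.42.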

How the results depend on the processing

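With limma at an adjusted p of 0.05, 0 cytokine, chemokine or receptor genes were called in any alternative run. Over all features the count stayed at 0 in gluteus, longissimus, their difference and the mean of both muscles, except in 8 cases. With only the arrays that carry RER RNA in Cy3 it was 1 in gluteus and 2 in longissimus. With only those in Cy5 it was 4 in gluteus, 90 in longissimus and 7 for both muscles, and with sparse arrays alone 1, 2 and 1. Single-dye values do not cancel the dye effect. With the replicate block (horse as a random block, correlation 0.200) and with the paired fit the counts were 0, and the block changed no call. Leaving out each horse in turn gave 0 calls each time, and leaving out longissimus horse 4, chosen after seeing the data, gave 0. For 4 dye-swapped pairs whose arrays correlate negatively, turning the sign of the Cy3 array gave 0 calls, 1656 longissimus features at an unadjusted p under 0.05 and a lowest member adjusted p of 0.235. There the longissimus means were -1.26 for Il15, 0.89 for Il1r2 and 1.08 for Tnfrsf1b, the last pair with changed sign, as had 17 of the 70 values of named genes.

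Of 1287 values of named genes under alternatives, 124 changed sign, and 20 of 70 kept their sign in every alternative run. Some of the 1287 could not change sign, because their setting leaves a gene's mean as it is. These are 70 values each without moderation, with each muscle fitted alone and with 3 horses required, and 40 with all 5 required. Sign changes were most frequent with 1 dye, with turned arrays and with dense arrays alone, 17 to 19 of 70 values each. Keeping the spellings apart left 55 member genes tested and called 0. The cause of these shifts was not tested. Depth is unknown, since ratios carry no intensity, and 81 of 145 genes had too few horses to be tested.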
